A study of Mus musculus with 16 samples.

Results

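The 10 genes described here are used as markers of the muscle cells and pericytes of the vessel wall. Which cells their RNA came from in these hearts was not measured. The genes are Acta2, Tagln, Myh11, Cnn1, Myl9, Smtn, Mylk, Rgs5, Pdgfrb and Notch3. They were taken by symbol from a table of 18346 genes, made by sequencing bulk RNA of 16 mouse hearts, and all 10 were among the 13373 genes with enough counts to be tested. The hearts came from wild-type (WT) mice and from mice with a systemic knockout (KO) of Armh4, at 8 weeks (young) or 25 months (aged), with 4 hearts in each of the 4 groups. C57BL/6J is named for the normal mice, and how the knockout allele was made is not stated in the labels. Each heart is a separate animal and carries its group and animal number as a name, such as WT_Young_29.

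Vascular smooth muscle wraps arteries and arterioles and sets their width by contracting. Calcium activates myosin light chain kinase, the kinase phosphorylates the regulatory light chain, and smooth muscle myosin then pulls on smooth muscle actin. Pericytes sit on capillaries and small venules, are recruited by platelet-derived growth factor from the endothelium, and carry less of the contractile apparatus. In the heart both belong to the coronary circulation and are a minority of its cells.

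Levels between genes were compared as FPKM, which divides by library size and gene length. Rgs5, a regulator of G protein signalling that is strong in pericytes, was the highest of the 10 at 217 ± 25.3 FPKM (SD over 16 hearts). Its lowest heart, at 191 FPKM, lay above the highest heart of every other member. The ranges of all the remaining neighbours in the order overlapped. Smtn followed at 64.4 ± 8.32 FPKM, then Acta2 at 53.1 ± 26.1 FPKM, Myl9 at 29.4 ± 13.4 FPKM and Tagln at 24.7 ± 15.2 FPKM. Pdgfrb stood at 18.3 ± 2.70 FPKM, Myh11 at 8.84 ± 5.01 FPKM, Mylk at 7.35 ± 1.53 FPKM and Notch3 at 7.08 ± 1.26 FPKM. Cnn1 was the lowest at 2.46 ± 2.15 FPKM, with 4 to 135 counts per library, whereas Rgs5 had 8811 to 13604 counts. The 5 genes Acta2, Tagln, Myh11, Cnn1 and Myl9 had larger spreads for their level than the other members.

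The contractile genes are classical targets of serum response factor (SRF), which binds a 10-base element called the CArG box, and of its partner myocardin. The sequences are printed because these genes varied together from heart to heart within groups. They are the 250 bases before the start of the gene from RefSeq on GRCm38.p6, 5′ to 3′ on the strand of the gene, for Acta2 (chr19:34255374-34255623, minus strand), Myl9 (chr2:156775214-156775463, plus strand) and Cnn1 (chr9:22099003-22099252, plus strand). Capitals mark a CArG box, CC and GG with 6 bases between them that are all A or T, or all but 1.
Acta2: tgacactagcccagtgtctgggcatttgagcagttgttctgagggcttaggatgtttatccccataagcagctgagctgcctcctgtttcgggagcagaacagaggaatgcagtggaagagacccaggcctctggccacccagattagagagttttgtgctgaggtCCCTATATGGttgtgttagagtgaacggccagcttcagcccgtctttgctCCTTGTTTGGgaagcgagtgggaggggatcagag
Myl9: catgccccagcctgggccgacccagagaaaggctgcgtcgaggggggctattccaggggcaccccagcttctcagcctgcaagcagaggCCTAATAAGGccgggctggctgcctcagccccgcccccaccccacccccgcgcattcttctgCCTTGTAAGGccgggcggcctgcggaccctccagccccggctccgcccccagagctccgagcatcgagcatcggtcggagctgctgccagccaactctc
Cnn1: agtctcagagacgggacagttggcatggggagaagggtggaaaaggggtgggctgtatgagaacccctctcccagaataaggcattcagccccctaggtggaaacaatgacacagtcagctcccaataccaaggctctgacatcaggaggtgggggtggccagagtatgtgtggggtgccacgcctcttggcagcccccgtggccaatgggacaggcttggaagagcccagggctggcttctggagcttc
Myl9 held a strict box that begins 161 bases before its start and another with 1 other base in the core 99 bases before it. Acta2 held boxes with 1 other base at 84 and at 34 bases before its start, and no strict one. Cnn1 held neither form in this window. The 32851 RefSeq promoter windows of the same length had the strict box in 1.47% and the form with 1 other base allowed in 8.59%. Of the 10 members 7 were searched, of which 1 held the strict box and 2 held the relaxed form. Tagln and Myh11 had no window there, and Pdgfrb was left out by name. The box is symmetric, so both strands were covered, and a match or its absence is only a description of these letters.

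Total counts ranged from 11456503 to 13298660 per library. Armh4, the targeted gene, averaged 15.5 ± 2.49 CPM in the young WT and 18.5 ± 1.94 CPM in the aged WT group (SD, n = 4), against 0.374 ± 0.198 CPM in young and 1.14 ± 0.368 CPM in aged KO hearts. CPM are counts scaled to library size, with TMM scaling, which corrects library sizes for differences in composition. Ventricular cardiomyocyte, macrophage and erythroid markers moved with age. The 10 ventricular markers summed to 92213 to 104745 CPM in young WT and 75924 to 91786 CPM in aged WT hearts, and to 90278 to 104879 CPM and 77624 to 87141 CPM in KO hearts, lower at 25 months without overlap in both genotypes. The 6 atrial markers summed to between 69.8 and 621 CPM. The 8 macrophage markers summed to 174 to 234 CPM in young WT and 444 to 602 CPM in aged WT hearts, and to 185 to 241 CPM and 336 to 367 CPM in KO hearts. The 6 erythroid markers summed to 528 to 715 CPM in young WT and 1021 to 2210 CPM in aged WT hearts, and to 616 to 1078 CPM and 898 to 1838 CPM in KO hearts. Mesothelial markers stayed between 3.44 and 8.93 CPM and adipocyte markers between 0.243 and 5.86 CPM.

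**Figure D1:**
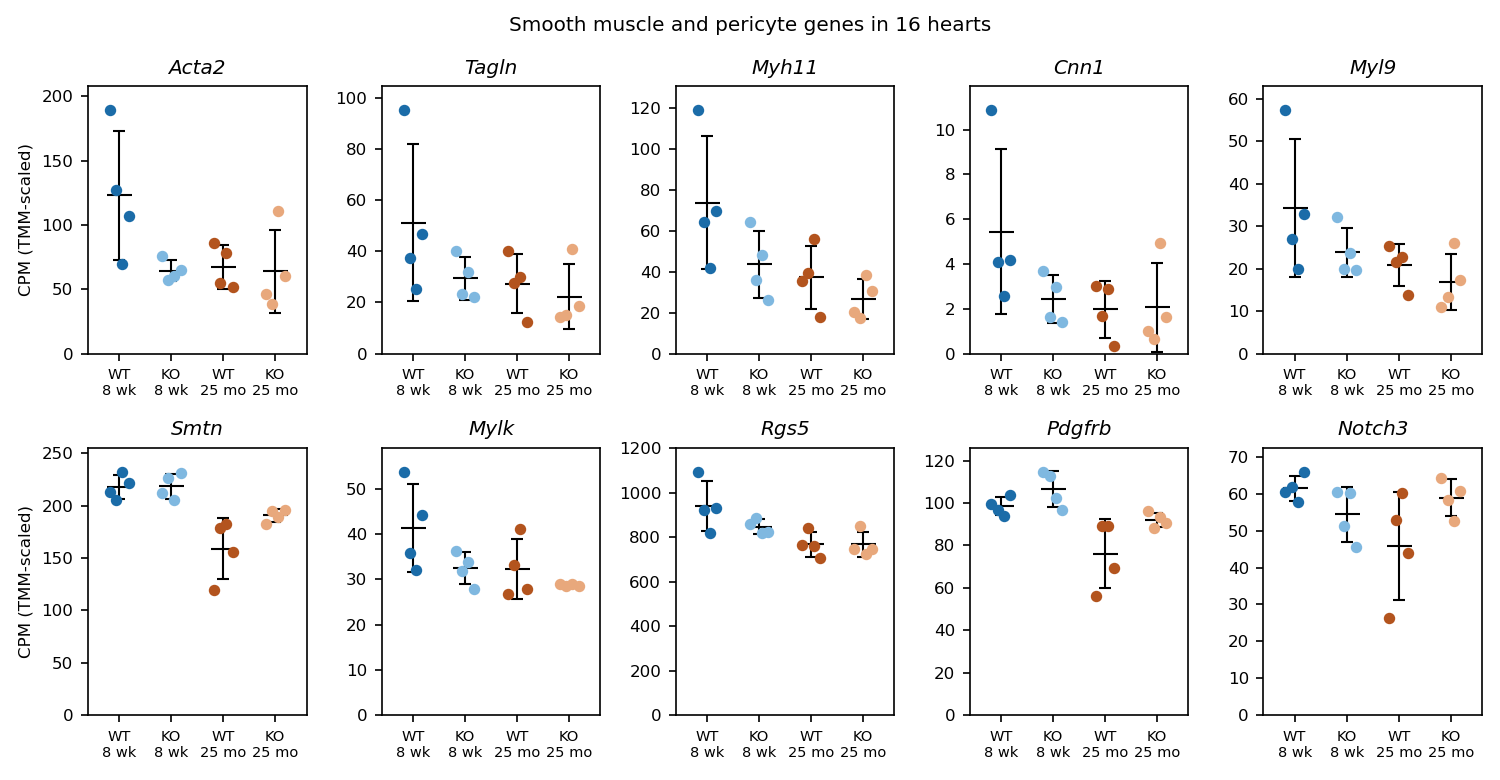
Level of each of the 10 genes in CPM (vertical axis, starting at 0) in the 4 groups (horizontal axis), with 1 point per heart and the mean ± SD of 4 hearts. The aged WT hearts lie below the young WT hearts for Smtn and Pdgfrb, while Acta2, Tagln, Myh11, Cnn1 and Myl9 spread widely within groups.

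Of the 4 comparisons of groups, members passed the test in the ageing of WT hearts. Smtn, Pdgfrb and Rgs5 fell from 8 weeks to 25 months by 18.4% to 27.1%, and no member rose. The other 7 members had negative log2 changes that did not pass. The 3 members called lower of 10 stand beside 9.93% of all tested genes called lower, and 21.7% called in either direction. Members are called where the adjusted p (edgeR's quasi-likelihood F test, Benjamini-Hochberg over all 13373 genes) is under 0.05. The median log2 change was -0.59 over the 10 members and -0.01 over all tested genes. In bulk RNA, fewer cells of a type and less RNA per cell cannot be told apart.

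Smtn (Entrez 29856) encodes smoothelin, an actin-binding protein of contractile smooth muscle. It stood at 213, 205, 232 and 222 CPM in WT_Young_29, WT_Young_34, WT_Young_39 and WT_Young_42. WT_Aged_1, WT_Aged_4, WT_Aged_5 and WT_Aged_12 had 119, 178, 183 and 155 CPM. Every aged heart lay below every young one, with WT_Aged_1 lowest. Smtn fell with a log2 change of -0.46 ± 0.10 (SE), a loss of 27.1% (edgeR adjusted p = 0.00295). Like the ventricular cardiomyocyte sum, Smtn was lower at 25 months without overlap in both genotypes. The part of cardiomyocyte RNA in the level of Smtn was not tested.

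Pdgfrb (Entrez 18596) encodes the receptor through which platelet-derived growth factor B recruits pericytes. It stood at 99.8, 96.7, 93.9 and 104 CPM in young WT hearts, in the same order of animals. In aged WT hearts it stood at 56.1, 89.4, 89.3 and 69.3 CPM. The groups did not overlap, though WT_Aged_4 and WT_Aged_5 came close to the young range. Pdgfrb fell with a log2 change of -0.38 ± 0.11 (SE), a loss of 22.9% (edgeR adjusted p = 0.0203). Smtn and Pdgfrb were the 2 members whose groups did not overlap, both lower, against 9.68% of all tested genes lower without overlap.

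Rgs5 (Entrez 19737) stood at 1095, 922, 819 and 931 CPM in young WT hearts. In aged WT hearts it stood at 765, 842, 762 and 705 CPM. WT_Aged_4 lay above WT_Young_39, so the groups overlapped. Rgs5 fell with a log2 change of -0.29 ± 0.09 (SE), a loss of 18.4% (edgeR adjusted p = 0.0214).

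The calls of Rgs5 and Pdgfrb each rested on single hearts. Without WT_Young_29, WT_Young_42 or WT_Aged_12, Rgs5 had an edgeR adjusted p of 0.1004, 0.0527 or 0.0707. Without WT_Young_42 or WT_Aged_1 or WT_Aged_12, Pdgfrb had an edgeR adjusted p of 0.0715, 0.0621 or 0.0661. Smtn kept its call without any single heart. With all hearts kept, limma on log2(FPKM + 1) gave an adjusted p of 0.130 for Rgs5 and 0.0574 for Pdgfrb. With only the WT groups in the fit, the edgeR adjusted p was 0.0905 for Rgs5 and 0.0952 for Pdgfrb. Smtn passed in both fits, and DESeq2 called all 3. With the mean log2 CPM of the erythroid markers as a covariate none of the 3 passed. Of all tested genes 258 did, in place of 2906. The erythroid sums of young and aged WT hearts did not overlap, so this fit can hardly tell age from the erythroid markers. In that fit the log2 change was -0.32 for Smtn (edgeR adjusted p = 0.527), -0.20 for Rgs5 (0.687) and -0.08 for Pdgfrb (0.914), so the value of Pdgfrb shrank the most. In the same comparison 3 of 10 ventricular cardiomyocyte markers fell, as many as of the members. The part of macrophage and cardiomyocyte RNA in these falls was not tested.

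Notch3 (Entrez 18131), the Notch receptor of smooth muscle cells and pericytes, stood at 60.6, 61.9, 57.8 and 65.9 CPM in young WT hearts. Aged WT hearts had 26.3, 52.9, 60.3 and 44.0 CPM. WT_Aged_1 was far below the rest and WT_Aged_5 lay within the young range. The log2 change was -0.42 ± 0.17 (SE) and did not pass (edgeR adjusted p = 0.0890), although without WT_Aged_5 it did (0.0183). WT_Aged_1, lowest of its group for Notch3, Pdgfrb and Smtn, also had the highest macrophage, erythroid, fibroblast and activated fibroblast marker sums of its group and the lowest sums of the ventricular, endothelial and other pericyte genes. Its atrial markers summed to 425 CPM, against 69.8 to 109.9 CPM in the other aged WT hearts.

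Mylk (Entrez 107589), the myosin light chain kinase of smooth muscle, stood at 53.8, 35.7, 31.9 and 44.1 CPM in young WT hearts. Aged WT hearts had 26.7, 33.1, 41.2 and 27.8 CPM. WT_Young_29 was the highest, and WT_Aged_4 and WT_Aged_5 reached into the young range. The log2 change of -0.36 ± 0.14 (SE) did not pass (edgeR adjusted p = 0.0805). It passed without WT_Young_39 (0.0292) and without WT_Aged_5 (0.0143).

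The filament genes had larger log2 changes with larger errors. Acta2 (Entrez 11475), smooth muscle actin, stood at 189, 127, 69.6 and 107 CPM in young WT hearts. Aged WT hearts had 86.0, 54.8, 77.8 and 51.5 CPM. WT_Young_29, WT_Young_34 and WT_Young_42 lay above every aged heart, and WT_Young_39 lay inside the aged range. The log2 change was -0.87 ± 0.34 (SE; 95% interval -1.60 to -0.13), and it did not pass (edgeR adjusted p = 0.0878). It passed without WT_Young_39 (0.0459) and without KO_Aged_122 (0.0345), which enters the pooled spread.

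Myh11 (Entrez 17880), the heavy chain of smooth muscle myosin, stood at 119, 64.3, 41.7 and 70.0 CPM in young WT hearts. In aged WT hearts it stood at 35.5, 39.4, 55.9 and 18.0 CPM. Only WT_Young_39 lay within the aged range. The log2 change was -0.99 ± 0.40 (SE) with an edgeR adjusted p of 0.102. Robust estimation of the spread was chosen after the counts without it were seen. Without it, Acta2 (0.0371) and Myh11 (0.0422) passed as well, which makes 5 members.

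Tagln (Entrez 21345), the actin-binding protein transgelin, stood at 95.2, 37.2, 25.3 and 46.9 CPM in young WT hearts. Aged WT hearts had 40.0, 27.5, 29.9 and 12.2 CPM. Its counts were not whole numbers in any of the 16 libraries, unlike those of the other 9 members, so its level is uncertain where the counting shared reads between similar genes. Cnn1 (Entrez 12797), calponin, an inhibitor of the myosin ATPase, stood at 10.9, 4.10, 2.58 and 4.20 CPM in young WT hearts. Aged WT hearts had 3.00, 1.66, 2.90 and 0.320 CPM. Myl9 (Entrez 98932), the regulatory light chain, went from 57.3, 26.95, 19.8 and 33.0 CPM in young hearts to 25.3, 21.6, 22.8 and 13.8 CPM in aged WT hearts. In all 3 genes WT_Young_29 was the highest and WT_Aged_12 the lowest, and the groups overlapped.

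None of those 3 passed. The log2 change was -0.90 ± 0.47 (SE) for Tagln (edgeR adjusted p = 0.194), -1.46 ± 0.64 for Cnn1 (0.121) and -0.72 ± 0.33 for Myl9 (0.143). Without WT_Young_29 the changes shrank to -0.40 for Tagln, -0.86 for Cnn1 and -0.34 for Myl9, and to -0.57 for Acta2 and -0.64 for Myh11.

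Ageing of KO hearts called no member, where 7.63% of all tested genes were called, and 0 of 10 members had an unadjusted p under 0.05. DESeq2 and limma called none either. The median log2 change was -0.20 over the 10 members and -0.01 over all tested genes. Smtn stood at 212, 226, 206 and 231 CPM in KO_Young_27, KO_Young_31, KO_Young_38 and KO_Young_53. KO_Aged_114, KO_Aged_115, KO_Aged_122 and KO_Aged_125 had 182, 195, 190 and 196 CPM. The groups did not overlap, but the change of -0.20 ± 0.10 (SE) did not pass (edgeR adjusted p = 0.271). Pdgfrb stood at 114.7, 113, 103 and 96.7 CPM in young KO and at 96.1, 88.4, 93.4 and 90.4 CPM in aged KO hearts. These groups too did not overlap, by a narrow margin, with a change of -0.21 ± 0.11 (SE; edgeR adjusted p = 0.280). The 2 members lower without overlap stand beside 6.97% of all tested genes.

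Rgs5 stood at 861, 887, 818 and 822 CPM in young KO hearts and at 749, 852, 724 and 749 CPM in aged KO hearts. KO_Aged_115 lay within the young range, and the change of -0.14 ± 0.09 (SE) did not pass (edgeR adjusted p = 0.380). Notch3 was the only member with a positive value, 0.12 ± 0.17 (SE; edgeR adjusted p = 0.756). It stood at 60.6, 51.1, 60.3 and 45.5 CPM in young KO and at 64.3, 58.2, 52.5 and 60.7 CPM in aged KO hearts. Mylk went from 36.3, 31.9, 33.8 and 27.9 CPM to 28.98, 28.5, 28.9 and 28.6 CPM, which are the closest values of any member within a group. Its change of -0.17 ± 0.15 (SE) did not pass (edgeR adjusted p = 0.541).

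Acta2 stood at 75.5, 56.9, 60.3 and 65.2 CPM in young KO hearts. Aged KO hearts had 46.3, 38.8, 111 and 60.2 CPM. KO_Aged_122 lay above every other KO heart and the remaining aged hearts reached into the young range only through KO_Aged_125. The log2 change was -0.01 ± 0.34 (SE; edgeR adjusted p = 0.993) with all 8 hearts and -0.41 without KO_Aged_122. The 95% interval with all hearts was -0.75 to 0.73.

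Tagln, Myh11, Cnn1 and Myl9 had KO_Aged_122 as the highest aged KO heart. Tagln stood at 40.0, 23.5, 32.1 and 22.1 CPM in young KO and at 14.4, 15.2, 41.0 and 18.4 CPM in aged KO hearts. Myh11 went from 64.5, 36.1, 48.1 and 26.4 CPM to 20.3, 17.2, 38.4 and 30.7 CPM. For Tagln the other aged hearts lay below every young KO heart, and for Myh11 KO_Aged_122 and KO_Aged_125 reached into the young range. Cnn1 stood at 3.70, 1.65, 2.97 and 1.42 CPM in young KO and at 0.994, 0.663, 4.95 and 1.62 CPM in aged KO hearts. Myl9 went from 32.1, 20.005, 23.8 and 19.7 CPM to 11.01, 13.3, 26.04 and 17.4 CPM.

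For these 4 genes the log2 changes were -0.40 for Tagln, -0.71 for Myh11, -0.23 for Cnn1 and -0.50 for Myl9 with all hearts, and none passed (edgeR adjusted p 0.352 to 0.892). Without KO_Aged_122 they were -0.87, -0.94, -1.14 and -0.78 in the same order, and none passed.

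The interaction, which sets the ageing change of KO hearts against the one of WT hearts (KO minus WT), called no member with edgeR, DESeq2 or limma, where 0.464% of all tested genes were called. Notch3 was the 1 member with an unadjusted p under 0.05, at 0.54 ± 0.24 (SE; edgeR adjusted p = 0.381), and at 0.33 without WT_Aged_1. All 10 members had positive values, with a median of 0.27 against 0.00 over all tested genes, but the contractile members share the same hearts and are not separate evidence. Without WT_Young_29 the value for Myh11 went from 0.27 to -0.07 and that for Myl9 from 0.22 to -0.15. The falls of Smtn, Pdgfrb and Rgs5 in WT hearts are therefore not shown to differ from the changes in KO hearts: the interaction was 0.26 for Smtn (95% interval -0.04 to 0.56), 0.16 for Pdgfrb (-0.17 to 0.49) and 0.15 for Rgs5 (-0.11 to 0.41).

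A comparison of age averaged over both genotypes, added after the other results were seen, called 4 members lower and none higher, where 12.9% of all tested genes were called lower and 27.6% in either direction. Smtn (log2 -0.33 ± 0.07 SE; edgeR adjusted p = 0.002), Pdgfrb (-0.29 ± 0.08; 0.00852) and Rgs5 (-0.22 ± 0.06; 0.0133) were lower at 25 months. Myh11, the smooth muscle myosin heavy chain, was lower too (-0.85 ± 0.29; 0.0453). Its call was lost without any 1 of the hearts other than WT_Young_39, KO_Young_53, WT_Aged_5 and KO_Aged_122 (edgeR adjusted p 0.0538 to 0.0939), and 7 members were called without KO_Aged_122. It was also lost without the filter on low counts (0.0583), with the atrial covariate (0.0635) and with the erythroid covariate (0.417), at log2 changes of -0.85, -0.89 and -0.90. The same average for genotype called no member with edgeR, DESeq2 or limma, where 0.0523% of all tested genes were called. Mylk (-0.26 ± 0.10; edgeR adjusted p = 0.428) and Pdgfrb (0.19 ± 0.08; 0.428) had an unadjusted p under 0.05 in it.

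**Figure D2:**
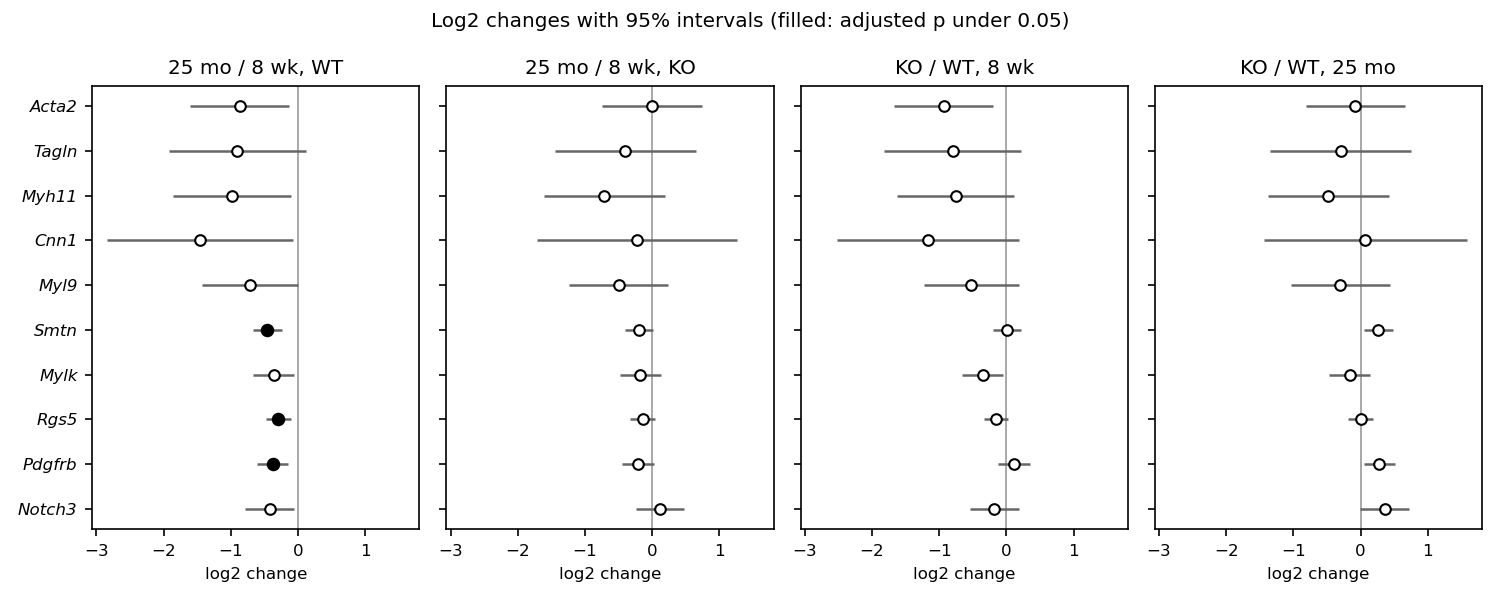
Log2 change (horizontal axis) of each of the 10 genes (vertical axis) in the comparisons of groups, with 95% intervals and filled points where the adjusted p was under 0.05. Filled points stand at Smtn, Pdgfrb and Rgs5 in the ageing of WT hearts, with values from -0.46 to -0.29.

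At 8 weeks KO and WT hearts differed in no member by the test, where 0.269% of all tested genes were called. Acta2 and Mylk had an unadjusted p under 0.05, and DESeq2 and limma called none. Acta2 had a log2 difference of -0.93 ± 0.34 (SE; 95% interval -1.67 to -0.19; edgeR adjusted p = 0.341). Mylk differed by -0.35 ± 0.15 (SE; edgeR adjusted p = 0.375). In Acta2 KO_Young_27, the highest young KO heart, exceeded WT_Young_39, the lowest young WT heart, and no member separated the groups, where 8.49% of all tested genes did.

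The values of the other filament genes at 8 weeks were -0.80 for Tagln, -0.75 for Myh11, -1.16 for Cnn1 and -0.52 for Myl9 (edgeR adjusted p 0.519 to 0.586). This comparison uses the same young WT hearts as the ageing of WT hearts, so the values of both are not independent. Without WT_Young_29 the differences were -0.64 for Acta2, -0.31 for Tagln, -0.42 for Myh11, -0.57 for Cnn1 and -0.15 for Myl9. The mural genes differed by -0.15 ± 0.09 (SE) for Rgs5, 0.11 ± 0.11 for Pdgfrb and -0.18 ± 0.17 for Notch3. Smtn, at 0.01 ± 0.10 (SE; 95% interval -0.21 to 0.22), had the smallest difference of the 10.

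At 25 months no member was called between KO and WT hearts either, where 0.875% of all tested genes were called. Smtn and Pdgfrb had an unadjusted p under 0.05, and DESeq2 and limma called none. Smtn averaged 191 ± 6.34 CPM in the KO group and 159 ± 28.9 CPM in the WT group (SD, n = 4), a log2 difference of 0.26 ± 0.10 (SE; edgeR adjusted p = 0.303). Pdgfrb averaged 92.1 ± 3.39 CPM and 76.0 ± 16.3 CPM, a difference of 0.28 ± 0.11 (SE; edgeR adjusted p = 0.340). For Notch3 the difference was 0.36 ± 0.17 (SE; edgeR adjusted p = 0.465).

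The spread lay in the WT hearts, where WT_Aged_1 was lowest for all 3 genes. Without it the differences were 0.14 for Smtn, 0.15 for Pdgfrb and 0.16 for Notch3. Members did not separate the groups at 25 months, where 5.04% of all tested genes did. Rgs5 had a difference of 0.00 ± 0.09 (SE; 95% interval -0.18 to 0.18), and the contractile members other than Smtn had values from -0.48 for Myh11 to 0.07 for Cnn1.

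Within a group, Acta2, Tagln, Myh11, Cnn1 and Myl9 varied together from heart to heart. These 5 were set apart after their spreads were seen. Their within-group SD on the log2 scale was 1.002 for Cnn1, 0.67 for Tagln, 0.60 for Myh11 and 0.49 for both Acta2 and Myl9. Those values lie above 94.4% to 99.5% of all tested genes. The SD was 0.12 for Rgs5, 0.15 for Smtn, 0.18 for Pdgfrb, 0.23 for Mylk and 0.29 for Notch3. Rgs5, the most abundant member, thus lay above 19.7% of all tested genes. These shares compare genes of unlike depth, such as Cnn1 with 4 to 135 counts and Rgs5 with 8811 to 13604.

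The same hearts stood at the ends for the whole group. WT_Young_29, KO_Young_27 and KO_Aged_122 were each the highest of their group for 5 of 5 genes, and WT_Aged_1 for 4 of 5. WT_Young_39 and WT_Aged_12 were the lowest for 5 of 5. The sum of the 10 fibroblast markers was also highest of its group in WT_Young_29 (1461 CPM), KO_Young_27 (1541 CPM), KO_Aged_122 (1773 CPM) and WT_Aged_1 (1988 CPM), and lowest in WT_Young_39 (1139 CPM). In aged WT hearts it was lowest in WT_Aged_5 (1129 CPM) and not in WT_Aged_12. The adipocyte sum was highest in WT_Young_29 (3.78 CPM) and KO_Aged_122 (3.73 CPM), but not in KO_Young_27 or WT_Aged_1. The ventricular cardiomyocyte sum ran the other way in some of these hearts, lowest of its group in WT_Young_29, KO_Young_27 and WT_Aged_1 and highest in WT_Young_39, but it was not lowest in KO_Aged_122. The part of these other cell types in the shared variation was not tested. The sum of the 14 other contractile smooth muscle genes did not follow the 5 genes in WT hearts. It was lowest in WT_Young_29 (1841 CPM) and highest in WT_Young_39 (2010 CPM) and WT_Aged_12 (1780 CPM). In aged KO hearts it was highest in KO_Aged_122 (1787 CPM). The sum of the 13 other pericyte genes was lowest of its group in WT_Young_29, WT_Aged_1 and KO_Aged_122, and highest in WT_Young_39.

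**Figure D3:**
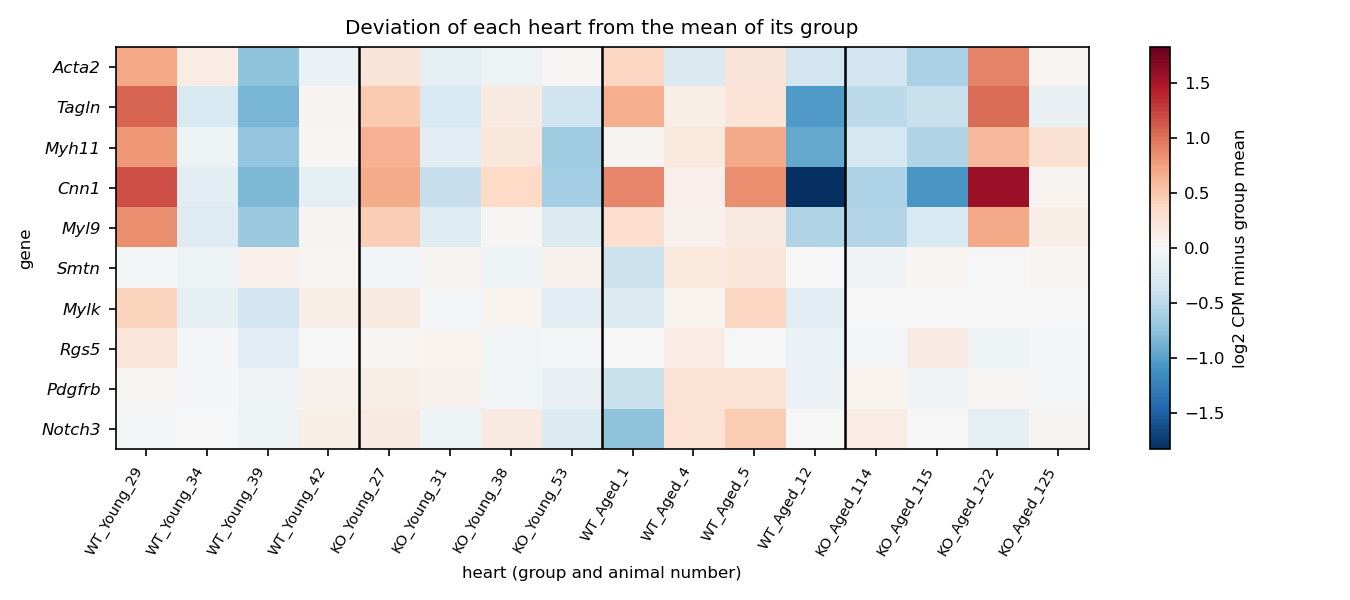
Deviation of each heart from the mean of its group in log2 CPM (colour) for the 10 genes (vertical axis) and the 16 hearts (horizontal axis). The columns of WT_Young_29 and KO_Aged_122 are high from Acta2 to Myl9, while Rgs5 varies little, with an SD of 0.12.

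Correlations over the 16 hearts were computed on log2 CPM centred within group, for all 45 pairs of members. P-values came from 100000 permutations of hearts within groups, adjusted by the Benjamini-Hochberg method over the 45 pairs. All 10 pairs among Acta2, Tagln, Myh11, Cnn1 and Myl9 passed, with Pearson's r of 0.763 to 0.968 and Spearman's rho of 0.788 to 0.977 (permutation adjusted p 0.00072 to 0.00642). Without the 2 hearts farthest from the median, r was 0.682 to 0.943. Tagln and Cnn1 had r = 0.954, rho = 0.977 and r = 0.938 without WT_Young_29 and KO_Aged_122.

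Smtn and Mylk, which also encode parts of the contractile machinery, joined less. Smtn had r of -0.293 with Acta2, -0.270 with Tagln, -0.200 with Cnn1, -0.182 with Myl9 and -0.001 with Myh11, and none passed. Mylk followed Myh11 (r = 0.775, rho = 0.771, permutation adjusted p = 0.00642; r = 0.717 without 2 hearts). With Acta2 its r was 0.431 (rho 0.371, permutation adjusted p = 0.286). The r of Mylk was 0.630 with Myl9, 0.582 with Tagln and 0.543 with Cnn1 (permutation adjusted p 0.0678 to 0.150), and none of these passed. With the mural genes its r lay between the values for Acta2 and Myh11, at 0.658 for Pdgfrb, 0.612 for Notch3 and 0.599 for Rgs5. None of these passed either. The rho of Mylk with Notch3 did pass (0.691, permutation adjusted p = 0.0394). The 15 pairs between those 5 contractile genes and Rgs5, Pdgfrb or Notch3 had r of -0.209 to 0.474 and none passed.

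Pdgfrb and Notch3 had r = 0.886 (permutation adjusted p = 0.0405), but rho was 0.688 (permutation adjusted p = 0.101), and r was 0.736 without WT_Aged_1 and WT_Aged_4. Smtn and Pdgfrb had r = 0.773 and rho = 0.326 (permutation adjusted p 0.166 and 0.522). Without WT_Aged_1 and WT_Aged_5 that r was 0.302, so it rests on those hearts.

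**Figure D4:**
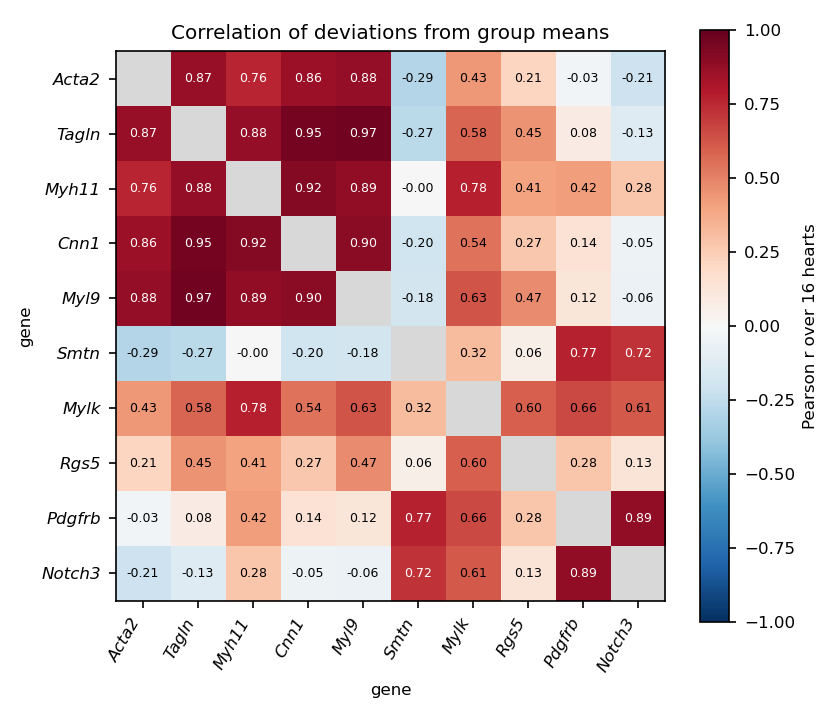
Pearson's r over 16 hearts (colour) between each pair of the 10 genes (both axes), from log2 CPM centred within group. Acta2, Tagln, Myh11, Cnn1 and Myl9 form a block with r of 0.763 to 0.968, and their r with Rgs5, Pdgfrb and Notch3 is at most 0.474.

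The other genes of these pathways were counted from lists by the same test, beside the 9.93% of all tested genes called lower in ageing WT hearts and the 7.63% called in either direction in ageing KO hearts. Of 14 other contractile smooth muscle genes 3 fell and none rose in ageing WT hearts: Itga8 (an integrin chain, log2 -1.24 ± 0.24), Lmod1 (leiomodin, -1.20 ± 0.30) and Ppp1r14a (an inhibitor of myosin phosphatase, -0.73 ± 0.24). The call of Ppp1r14a was lost without WT_Young_29 (edgeR adjusted p = 0.197), WT_Aged_4 (0.0651) or WT_Aged_12 (0.107). Of 13 other pericyte genes 2 fell and none rose, Cspg4 (the NG2 proteoglycan, -0.65 ± 0.13) and Rgs4 (-0.55 ± 0.16). The call of Rgs4 was lost without WT_Young_29 (0.0736), WT_Aged_1 (0.0653) or WT_Aged_12 (0.0647). The medians were -0.29 and -0.16 for the 2 lists, against -0.01 over all genes. In ageing KO hearts none of the 14 contractile genes fell and 1 rose, Pcp4l1 (0.33 ± 0.09; edgeR adjusted p = 0.0301). Its call was lost without any 1 of KO_Young_27, KO_Young_31, KO_Young_38, KO_Aged_122 and KO_Aged_125 (0.0654 to 0.107) and with the erythroid covariate (0.117). None of the 13 pericyte genes was called in ageing KO hearts.

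Among 21 genes of the Notch pathway 7 fell and 1 rose in ageing WT hearts. Heyl, a transcriptional target of Notch3 in smooth muscle, fell with a log2 change of -1.08 ± 0.18 (SE; edgeR adjusted p = 0.00037). Notch4 and Notch1, receptors of endothelial cells, fell by 0.74 and 0.59 on the log2 scale. Rbpj, the DNA-binding partner of all Notch receptors, rose (0.42 ± 0.08). Jag1, the endothelial ligand of Notch3, had a change of -0.08 ± 0.10 and did not pass (edgeR adjusted p = 0.615). In KO hearts Heyl fell too (-0.69 ± 0.18; edgeR adjusted p = 0.0230). That call was lost without any 1 of KO_Young_27, KO_Young_31 and KO_Young_53 or KO_Aged_115, KO_Aged_122 and KO_Aged_125 (adjusted p 0.0539 to 0.0742).

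Of the 5 PDGF genes, Pdgfb, the ligand of Pdgfrb, had a change of -0.12 ± 0.15 in WT ageing (edgeR adjusted p = 0.609). Pdgfd, which also activates Pdgfrb, rose in WT (0.51 ± 0.12) and in KO hearts (0.47 ± 0.12; edgeR adjusted p = 0.0199). The KO call of Pdgfd was lost without KO_Young_53 (0.0773) or KO_Aged_115 (0.0799) or KO_Aged_125 (0.0676). Pdgfa fell in WT hearts (-0.34 ± 0.09).

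Regulators of the contractile genes fell in 3 of 10 cases in ageing WT hearts and rose in none. Srf went from 135 ± 9.92 to 98.2 ± 8.88 CPM (SD, n = 4), a log2 change of -0.46 ± 0.09 (SE; edgeR adjusted p = 0.00108). Klf4, a repressor of the contractile genes, fell as well, from 91.9 ± 14.8 to 53.3 ± 10.8 CPM (-0.79 ± 0.13 SE). Myocd, myocardin, fell by 0.47 on the log2 scale (edgeR adjusted p = 0.0205). Its call was lost without WT_Young_34 (0.0617) or WT_Young_39 (0.0861) or WT_Aged_1 (0.0794), WT_Aged_4 (0.0777) or WT_Aged_12 (0.0551). Srf and Myocd are also expressed in cardiomyocytes. In KO hearts Klf4 fell (-0.56 ± 0.13; edgeR adjusted p = 0.0118, and 0.0509 without KO_Aged_122).

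Of 22 genes of vascular tone signalling 8 fell and none rose in ageing WT hearts, and none was called in ageing KO hearts. Adra1d, an adrenergic receptor of arteries, fell by 0.84 and Adra1b by 0.63 on the log2 scale. Pde5a, the phosphodiesterase that degrades cyclic GMP in smooth muscle, fell by 0.59. Gucy1b1, a subunit of the nitric oxide receptor, fell by 0.30, and its edgeR adjusted p without WT_Young_29 was 0.0563. Between genotypes at 25 months Prkg1, the cyclic GMP-dependent kinase, had the lowest adjusted p of the list, with 0.52 ± 0.14 (edgeR adjusted p = 0.107). It passed with DESeq2 (adjusted p = 0.0484) and without WT_Aged_12 (0.0314). At 8 weeks Ednra, the endothelin receptor of smooth muscle, was lower in KO (39.4 ± 6.31 CPM) than in WT hearts (60.7 ± 5.90 CPM; log2 -0.62 ± 0.10 SE; edgeR adjusted p = 0.0132). That call was lost without WT_Young_39 (0.0678) or WT_Young_42 (0.0622) or KO_Young_27 (0.0872) or KO_Young_31 (0.0534).

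Markers of other cell types moved with these lists. In ageing WT hearts 6 of 6 erythroid and 7 of 8 macrophage markers rose, while 3 of 10 ventricular cardiomyocyte and 2 of 10 endothelial markers fell. In ageing KO hearts 0 of 6 erythroid and 8 of 8 macrophage markers rose, and 1 of 10 ventricular and 2 of 10 endothelial markers fell. With the mean log2 CPM of the erythroid markers as a covariate, every list gene named here as changed in ageing WT hearts missed the threshold. The edgeR adjusted p ran from 0.129 for Rbpj to 0.817 for Rgs4, and each gene kept its direction. Erythroid sums of young and aged WT hearts did not overlap, so this fit can hardly tell age from the erythroid markers. Several values stayed near their size or grew: Rbpj went from 0.42 to 0.50, Myocd from -0.47 to -0.61, Gucy1b1 from -0.30 to -0.34, Srf from -0.46 to -0.41, Klf4 from -0.79 to -0.73 and Lmod1 from -1.20 to -1.07. Others shrank, such as Rgs4 from -0.55 to -0.22 and Cspg4 from -0.65 to -0.29. Ppp1r14a, Pdgfa and Gucy1b1 also missed the threshold with limma on FPKM (adjusted p 0.0668 to 0.102). With only the WT groups in the fit, Ppp1r14a, Rgs4, Pdgfa and Myocd missed it (edgeR adjusted p 0.0673 to 0.0851). The part of macrophage, cardiomyocyte and endothelial RNA in these values was not tested.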

How the data were processed

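Bulk RNA of 16 hearts was analysed from gene-level tables. The count table holds expected counts, which the authors deposited and which need not be whole. The FPKM table was scaled by the authors for library size and gene length, as its values show. Per the submitters' processing notes, HISAT, Bowtie2 and the build GRCm39 were used, with no version or role for any of them. For the counter, "not given in the sources used here" applies. Between 9.57% and 10.5% of a library's values were not whole (tolerance 1e-09), and counts were rounded.

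Genes kept by filterByExpr went into edgeR 4.0.16 under R 4.3.3 (TMM scaling, 1 quasi-likelihood fit of 4 group means on all 16 libraries, 12 residual degrees of freedom), with Benjamini-Hochberg adjustment over 13373 genes at 0.05. Intervals cover 95%. Robust estimation of the spread was chosen after the counts without it were seen, because the totals over all genes then equal those of an earlier analysis of these data. The members, the gene lists and the rule for naming genes were chosen with earlier results of these data known. All 10 members are named, with up to 4 genes per list in order of adjusted p. Some names at the end of these orders were left out. Myocd, Srf, Jag1, Pdgfb and Klf4 are always named. Irag1 was matched under its older symbol Mrvi1. No list was given a test of its own. The relaxed CArG search was added after the strict one had been run. Log2 CPM used a prior count of 2.

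Alternatives were RLE scaling, no filter, limma 3.58.1 on log2(FPKM + 1) and log2(FPKM + 0.1), DESeq2 1.42.0, only the groups compared, atrial and erythroid marker covariates, and each heart left out. Each covariate was the mean log2 CPM of the tested markers of its list. On simulated data for the ageing of WT hearts (13373 genes), the fit recovered 93.9% of 98 genes changed by 1 on the log2 scale and 100% of 100 genes changed by 2, with 7 false calls. The simulated counts took the spread fitted as a trend over level, with no spread of each gene's own. These shares do not carry over to Acta2, Tagln, Myh11, Cnn1 and Myl9. Their within-group SD lay above 94.4% to 99.5% of all tested genes. RefSeq promoters were searched for 7 of the 10 members. Depth limits Cnn1 most, with as few as 4 counts in a library.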

Additional observations from a re-analysis of the deposited data

Results flagged for a closer look

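Tagln in KO_Aged_122, at 41.0 CPM, stood apart from the other 3 aged KO hearts, which had 14.4, 15.2 and 18.4 CPM. The gap to the nearest of them, divided by the range of the group, was above Dixon's 95% critical value for 4 samples. It was the 1 case in 40 checks of the 10 genes in the 4 groups, and chance marks about 1 in 20 such groups. Without this heart the log2 change of Tagln in ageing KO hearts was -0.87 in place of -0.40.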

How the results depend on the processing

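No paired analysis was possible because the groups share no animal number. Over 70 results for the members and 1790 values under alternatives, 1696 kept their direction and side of the threshold, 37 lost a call, 16 gained one and 41 changed sign. Most of the 70 results had no call to lose, so these totals do not measure how stable the calls are. Of 26 alternatives in ageing WT hearts, 1 lost the call of Smtn, 7 that of Rgs5 and 7 that of Pdgfrb. Of 25 in the averaged age comparison, 15 lost the call of Myh11, 1 of Smtn, 3 of Rgs5 and 3 of Pdgfrb. The 0 members called between genotypes at each age, in ageing KO hearts, in the interaction and in the genotype difference averaged over ages held under every alternative run.

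In ageing WT hearts 3 members were called. That count was 1 with limma on log2(FPKM + 1), 1 with log2(FPKM + 0.1) and 1 with only the groups compared in the fit. It was 0 with the erythroid covariate and 5 without robust estimation. Robust estimation was chosen after the count without it was seen. Leaving out single hearts gave 1 (without WT_Young_42 or WT_Aged_12) to 5 (without WT_Young_39 or WT_Aged_5). The causes were not tested.

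The age comparison averaged over genotypes called 4 members, 2 with limma on either FPKM scale, 0 with the erythroid covariate, 3 without the filter or with the atrial covariate, 5 with DESeq2 or without robust estimation, and 3 to 7 without single hearts (7 without KO_Aged_122).

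Signs changed in the following values, none of which was called. Between genotypes at 8 weeks Smtn (0.0051) became -0.00591 without the filter and -0.00335 with only the groups compared, and Pdgfb (-0.000375) became 0.0566 with the atrial covariate, 0.0271 with the erythroid covariate and 2.52e-05 with DESeq2. At 25 months Acta2 (-0.0769) became 0.0952 with the erythroid covariate, Pdgfb (-0.0515) became 0.0918 with the atrial covariate, and Rgs5 (0.000361) became -0.00394 with RLE scaling, -0.00324 without the filter, -0.00314 and -0.0357 with the atrial and erythroid covariates and -0.00396 with DESeq2. In the interaction Pdgfrb (0.163) became -0.0373 with the erythroid covariate and Pdgfb (-0.0511) became 0.0352 with the atrial covariate. Notch3 in the averaged age comparison (-0.154) became 0.0245 with the erythroid covariate.

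Without single hearts, values crossed 0 over these ranges. At 8 weeks they were Smtn -0.0222 to 0.0434 and Pdgfb -0.0921 to 0.128. At 25 months they were Acta2 -0.482 to 0.0961, Cnn1 -0.850 to 0.351, Rgs5 -0.0569 to 0.0439, Srf -0.00814 to 0.107, Jag1 -0.0149 to 0.0650 and Pdgfb -0.183 to 0.0316. In WT ageing they were Jag1 -0.142 to 0.00879 and Pdgfb -0.210 to 0.0143, and in KO ageing Acta2 -0.408 to 0.170 and Cnn1 -1.14 to 0.0590. In the interaction they were Myh11 -0.0670 to 0.538, Myl9 -0.154 to 0.409 and Pdgfb -0.190 to 0.0354, and in the averaged genotype comparison Notch3 -0.00583 to 0.172.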

Other observations

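Genes outside the 10 members were ranked by how closely their deviations from group means followed those of the members over 16 hearts, among 10673 genes with a mean of at least 5 CPM. For the mean of the 7 contractile members the closest were Fdxacb1 (r = 0.826), Tpm2, the smooth muscle-type tropomyosin (0.819), Kalrn (0.818), Scpep1 (0.802) and 1700123O20Rik (0.7999). For the mean of Rgs5, Pdgfrb and Notch3 they were Plekhg2 (0.959), Mlxipl (0.956), Notch1 (0.947), Gak (0.926) and Plekhg3 (0.925). Spearman's rho for this second list was lower, from 0.768 for Plekhg3 to 0.929 for Mlxipl. WT_Aged_1 deviated most in the mean of Rgs5, Pdgfrb and Notch3 (-0.383 on the log2 scale), followed by WT_Aged_5 (0.236). The part of WT_Aged_1 in these r values was not tested. For the contractile list, r without 2 hearts was 0.724 for Fdxacb1 to 0.782 for Scpep1. All values come from the same libraries and are given as a description.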
